A study of Bos taurus with 6 samples.

Results

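The genes described here belong to adipocyte identity and lipid uptake, and were chosen by a list of 6 Ensembl identifiers with a gene name beside each: ENSBTAG00000037526 (FABP4), ENSBTAG00000012855 (LPL), ENSBTAG00000017866 (CD36), ENSBTAG00000014911 (LEP), ENSBTAG00000019813 (ADIPOQ) and ENSBTAG00000014333 (PPARG). Of these, 5 identifiers had a row in the count table used here, out of 27607 identifiers in all. The identifier listed as ADIPOQ (adiponectin) had no row, so that ADIPOQ was not analysed and its level is not known here. The count table lists identifiers without names. The gene table used here (RefSeq, ARS-UCD2.0) held no Ensembl identifiers with which to match them. The names FABP4, LPL, CD36 and LEP are therefore those of the list and could not be looked up independently. The rows of these 4 genes stood in the count table in the order in which the RefSeq table places CD36, LEP, LPL and FABP4 along the numbered chromosomes. The row listed as PPARG stood first of the 5, whereas the RefSeq table places PPARG last of them. The name PPARG was therefore not used for that row, which is called ENSBTAG00000014333 throughout, and no level of PPARG is reported. This takes the count table to run in chromosome order, which was looked at in these 5 rows only. Whether the row is PPARG is thus not settled here.

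RNA was sequenced from fibro-adipogenic progenitors (FAPs), interstitial cells of muscle that can become adipocytes, and from satellite cells (SCs), which build and repair muscle fibres. Both came from the semitendinosus muscle of Belgian blue cattle of either sex and of a range of ages, which are not given per library. They were separated by sorting cells without CD31 and CD45 into CD29+ CD56- (FAPs) and CD29+ CD56+ (SCs) fractions, and RNA was taken after 72 h of culture from 2000 cells per cm2 in growth medium with 20% serum and 5 ng/ml bFGF. No adipogenic inducer was added to any of the 6 libraries, 3 of FAPs and 3 of SCs, lettered A, B and C in each cell type, and nothing used here says whether the letters stand for animals or cultures, so that p-values measure the spread between these samples, which may be technical.

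In the adipocyte, the nuclear receptor PPARG switches on much of the machinery for taking up and storing fat, and FABP4, LPL, CD36 and ADIPOQ are among its best known targets. LPL, a secreted lipase, frees fatty acids from circulating triglyceride. CD36 carries fatty acids across the plasma membrane, and FABP4 binds them inside the cell. LEP (leptin) and adiponectin are hormones released by fat tissue. FABP4, LPL and CD36 are not restricted to fat, as macrophages make all of them, capillary endothelium contains FABP4 and CD36, and muscle fibres contain LPL and CD36.

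The 5 genes did not move as a group. LEP was higher in FAPs, FABP4 and LPL were higher in SCs, and CD36 and ENSBTAG00000014333 did not pass the cutoffs. A gene was called at a Benjamini-Hochberg FDR below 0.05 and an absolute log2 fold change above 1 in edgeR's quasi-likelihood test, fitted on all 14039 genes that passed the filter on low counts, and fold changes are given as FAPs minus SCs. Of the 5 genes, 3 were called, with LEP higher in FAPs and with FABP4 and LPL higher in SCs. Over all tested genes the share called was 28.1%, made up of 14.5% with the higher level in FAPs and 13.6% with the higher level in SCs. The 3 FAPs libraries did not overlap the 3 SCs libraries in these 3 genes and in ENSBTAG00000014333, 4 of the 5, where 74.5% of tested genes showed no overlap. With 5 genes, a count of 3 is read as a description of these genes only. The same 3 genes were past the threshold when the test was made against a 2-fold change. Bulk RNA does not tell apart fewer cells with a transcript from less of it per cell.

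All 5 genes were already counted without induction. Each had more than 3 counts, the smallest level taken as shown, in all 6 libraries, with between 20 counts (CD36 in FAPs C) and 2849 counts (FABP4 in SCs C), and none of them stood at or under that floor. Library totals lay between 19666738 and 37791193 counts, so that 3 counts correspond to between 0.0825 and 0.157 CPM. CPM are counts scaled to a common library size, here after adjusting library sizes with TMM factors, which set libraries level by the bulk of their genes. They are not divided by gene length, and are therefore compared between cell types within a gene and not between genes.

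**Figure D1:**
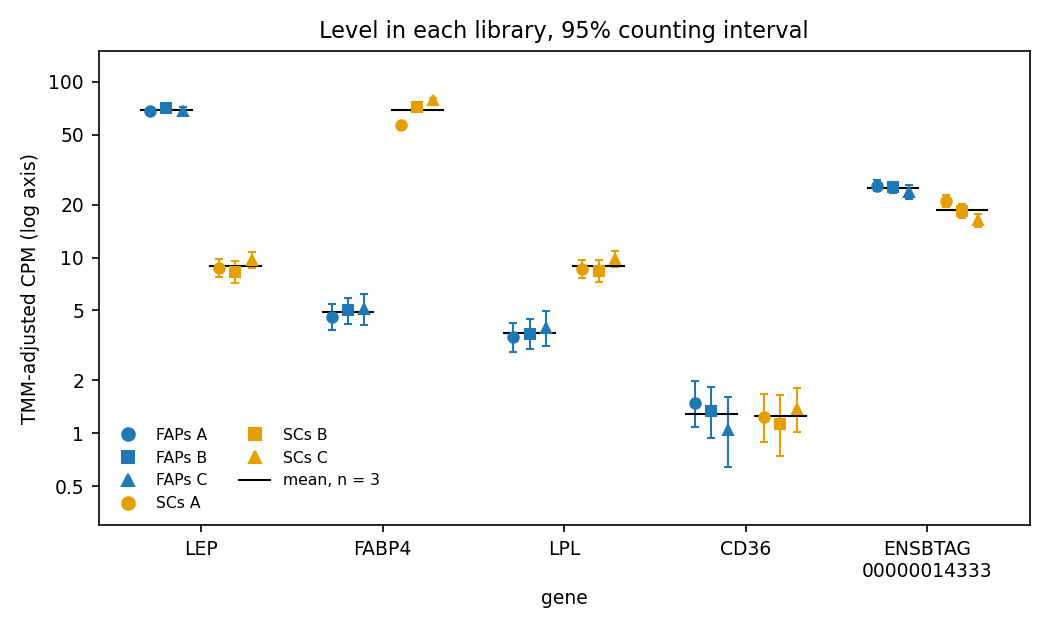
Level of each gene in each library, in TMM-adjusted CPM on a log axis, with FAPs in blue and SCs in orange and a symbol for each letter. Vertical bars are exact 95% Poisson intervals, which cover counting error only, and black lines are means (n = 3). LEP lies far higher in FAPs and FABP4 far higher in SCs, LPL is higher in SCs by a smaller margin, and the points of CD36 overlap.

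LEP, an adipokine, was the gene of the 5 that was called higher in FAPs. It was counted at 68.1, 71.3 and 67.9 CPM in FAPs A, B and C, and at 8.76, 8.28 and 9.71 CPM in SCs A, B and C. The lowest FAPs library was 7.0 times the highest SCs library. The means were 69.1 ± 1.89 CPM (SD, n = 3) in FAPs and 8.91 ± 0.725 CPM (SD, n = 3) in SCs, a 7.75-fold difference. The log2 fold change of LEP was 2.95 with a standard error of 0.0806 (adjusted p = 1.23e-11, edgeR's quasi-likelihood test). Leptin transcript was counted in every SCs library as well, with 197 to 353 counts.

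FABP4, the intracellular fatty acid carrier, showed the largest difference of the 5 genes, in the opposite direction. It was counted at 4.6, 5.0 and 5.08 CPM in FAPs A, B and C, and at 56.6, 72.2 and 78.3 CPM in SCs A, B and C. The lowest SCs library was 11.1 times the highest FAPs library, so that the groups lay far apart. The means were 4.89 ± 0.260 CPM (SD, n = 3) in FAPs and 69 ± 11.2 CPM (SD, n = 3) in SCs, a 14.1-fold difference. The log2 fold change of FABP4 was -3.82 with a standard error of 0.131 (adjusted p = 8.32e-11, edgeR's quasi-likelihood test). Among tested genes it stood at percentile 3.18 of the log2 fold changes, and LEP at percentile 95.9.

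LPL, which acts at the first step of lipid uptake, was also higher in SCs, by less. It was counted at 3.53, 3.70 and 3.98 CPM in FAPs A, B and C, and at 8.64, 8.41 and 9.82 CPM in SCs A, B and C. No FAPs library reached an SCs library, and the closest pair still differed 2.11-fold. The means were 3.74 ± 0.229 CPM (SD, n = 3) and 8.95 ± 0.756 CPM (SD, n = 3), a 2.40-fold difference. The log2 fold change of LPL was -1.27 with a standard error of 0.122 (adjusted p = 1.37e-06, edgeR's quasi-likelihood test). Its 95% interval ran from -1.54 to -1.0, so that the estimate lay near the cutoff of 1 on the log2 scale, and against a 2-fold change the adjusted p was 0.0284 in edgeR's glmTreat test.

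CD36, the membrane carrier, was the least counted of the 5 genes. It had 46, 38 and 20 counts in FAPs A, B and C, and 42, 27 and 50 counts in SCs A, B and C. These correspond to 1.49, 1.34 and 1.05 CPM in FAPs and to 1.25, 1.14 and 1.37 CPM in SCs, and the groups overlapped. The lowest value, in FAPs C, had a 95% Poisson interval from 0.640 to 1.62 CPM, which spans every other library. The log2 fold change of CD36 was 0.06 with a 95% interval from -0.39 to 0.51 (adjusted p = 0.806, edgeR's quasi-likelihood test), so that a 2-fold difference in either direction lay outside the interval, while small differences of either sign and no difference lay inside it.

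ENSBTAG00000014333, the row listed as PPARG and not used under that name, was counted at 25.6, 25.1 and 23.5 CPM in FAPs A, B and C, and at 21.0, 18.4 and 16.3 CPM in SCs A, B and C. Every FAPs library was above every SCs library, by 1.12-fold for the closest pair, as was the case in 36.5% of all tested genes. Its log2 fold change was 0.42 with a standard error of 0.0984 (adjusted p = 0.00225, edgeR's quasi-likelihood test), under the cutoff on the fold change, and an FDR below 0.05 without that cutoff was reached by 71.2% of tested genes. On library totals its libraries overlapped and the log2 fold change was -0.12. The study reported PPARG as strongly higher in FAPs than in SCs in its RNA sequencing. This row showed no such strong difference, and which gene it stands for was not tested.

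**Figure D2:**
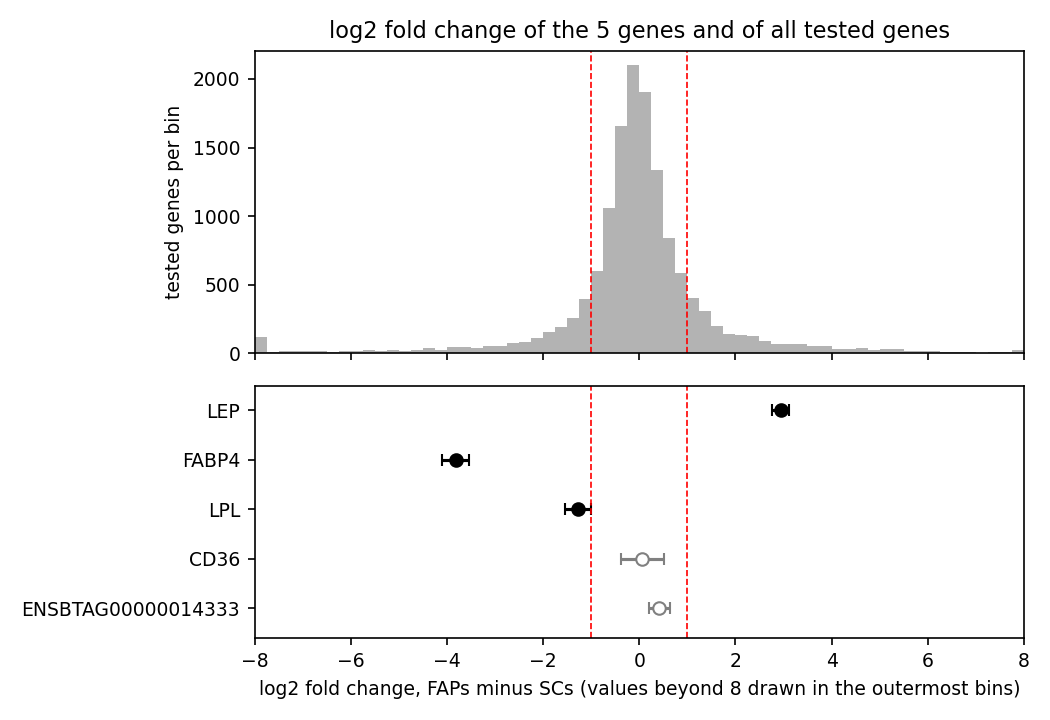
Upper panel, number of tested genes in bins of the log2 fold change, FAPs minus SCs. Lower panel, the log2 fold change of each of the 5 genes with its 95% interval, filled where called, and dashed red lines at the cutoffs of -1 and 1. LEP (2.95) and FABP4 (-3.82) lie in opposite tails of the distribution, LPL (-1.27) just past the cutoff, and CD36 (0.06) and ENSBTAG00000014333 (0.42) between the cutoffs.

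Replicates of a cell type differed little for most of these genes. In FAPs the coefficient of variation was 2.74% for LEP, 5.31% for FABP4, 6.13% for LPL and 17.4% for CD36, where counting error alone gives 2.41%, 9.02%, 10.3% and 18.1%. In SCs it was 8.14% for LEP, 8.44% for LPL and 9.58% for CD36, where counting error gives 6.14%, 6.12% and 16.4%. In SCs, 2 genes spread further beyond counting error, FABP4 with 16.3% against 2.20% from counting and ENSBTAG00000014333 with 12.6% against 4.24%. For FABP4, SCs A was the lowest library, at 56.6 CPM with a 95% Poisson interval from 54.1 to 59.2, under the intervals of SCs B (from 68.8 to 75.7) and SCs C (from 75.5 to 81.3). For ENSBTAG00000014333, SCs A was the highest library, with an interval from 19.4 to 22.6 CPM that lay above that of SCs C (from 15.0 to 17.6). Taken letter by letter, the log2 ratio of FAPs to SCs lay between -3.95 and -3.62 for FABP4, between 2.81 and 3.11 for LEP, and between -1.30 and -1.19 for LPL. For CD36 it was 0.26 in A, 0.24 in B and -0.39 in C, so that its sign differed between letters.

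The 3 lipid uptake genes were also set against each other and against LEP within each library. A ratio of counts between genes of the same library does not depend on how libraries are scaled, and gene length cancels when the ratio is compared between cell types. FABP4 to LEP was 0.0675, 0.0701 and 0.0748 in FAPs A, B and C, and 6.46, 8.72 and 8.07 in SCs A, B and C, a 108.7-fold difference. LPL to LEP was 0.0518, 0.0519 and 0.0586 in FAPs and 0.986, 1.02 and 1.01 in SCs, an 18.6-fold difference. In SCs, counts of LPL and LEP were thus nearly equal in all 3 libraries.

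The uptake genes differed among themselves as well. FABP4 to LPL was 1.30, 1.35 and 1.28 in FAPs and 6.55, 8.59 and 7.98 in SCs, 5.84-fold higher in SCs. CD36 to LPL was 0.422, 0.362 and 0.263 in FAPs and 0.144, 0.135 and 0.140 in SCs, 2.45-fold higher in FAPs. FABP4 to CD36 was 14.3-fold and CD36 to LEP 7.59-fold higher in SCs. These ratios restate the differences of the single genes on a scale free of library factors and are not separate evidence, so that no test is given for them.

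**Figure D3:**
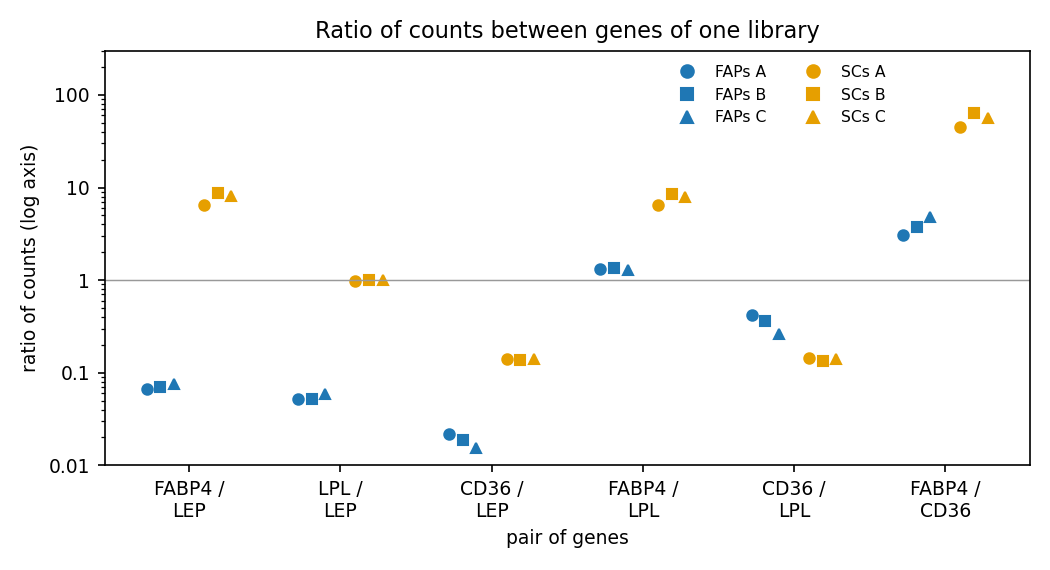
Ratio of the counts of 2 genes in the same library, on a log axis, for 6 pairs of genes, with FAPs in blue and SCs in orange and a symbol for each letter. The ratio of FABP4 to LEP lies near 0.07 in FAPs and between 6.46 and 8.72 in SCs, and CD36 to LPL is the pair with the higher ratio in FAPs.

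The scaling of libraries decided the sign of the small differences and left the large ones in place. TMM factors were between 0.818 and 0.840 in FAPs and between 1.2 and 1.21 in SCs. When libraries were scaled by their totals instead, the median over all tested genes moved from -0.03 to -0.57 on the log2 scale. On that scale LEP was at 2.41, FABP4 at -4.36 and LPL at -1.81, all still called, while CD36 was at -0.48 with an adjusted p of 0.0433 in edgeR's quasi-likelihood test, under the cutoff on the fold change. CPM of CD36 on library totals were between 0.880 and 1.22 in FAPs and between 1.37 and 1.66 in SCs, so that the groups, which overlapped on TMM-adjusted sizes, no longer did. A change of library factors shifts all genes by about the same amount, so that the log2 fold changes relative to the median of all tested genes are fixed across scalings by construction. They were 2.98 for LEP, -3.79 for FABP4, -1.24 for LPL, 0.09 for CD36 and 0.45 for ENSBTAG00000014333.

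**Figure D4:**
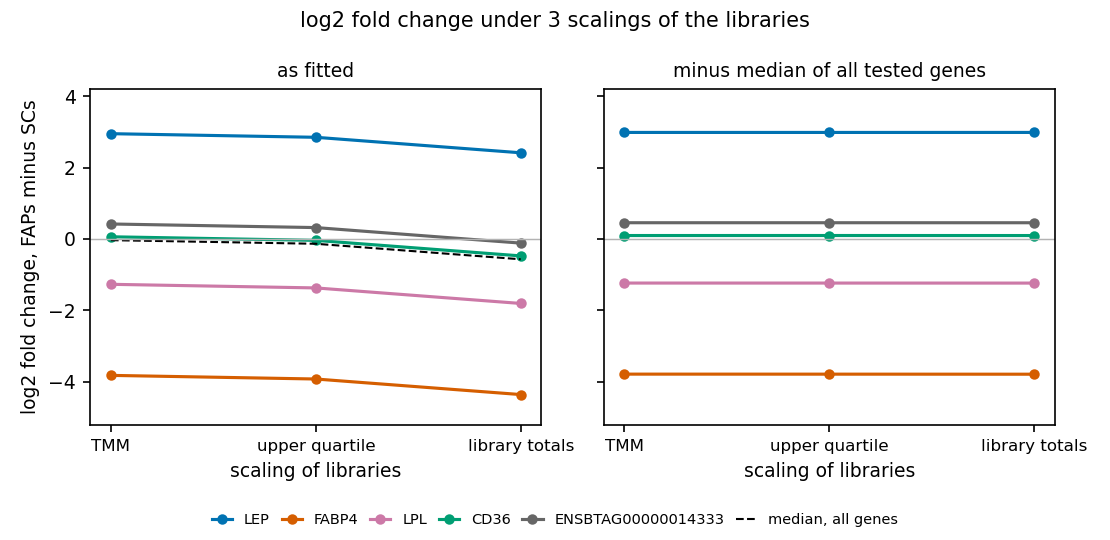
The log2 fold change (FAPs minus SCs) of each of the 5 genes with TMM factors, upper-quartile factors or library totals, as fitted on the left and after subtracting the median of all tested genes (dashed line) on the right. On the left all 5 lines go down together with the median, and CD36 and ENSBTAG00000014333 cross 0. On the right the lines are level by construction, as a change of factors shifts all genes alike.

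Genes with the most similar profile were sought for FABP4, which had the highest mean raw count of the 5, while LEP had the higher mean in TMM-adjusted CPM. Pearson's r of log2 CPM over the 6 libraries was above 0.99 with 900 of the other tested genes, a description that rests on the 2 separate groups of libraries. The highest was ENSBTAG00000049233 (r = 0.99987; 43.3 CPM in FAPs and 161.7 CPM in SCs on average), followed by ENSBTAG00000005603 (r = 0.99982), neither of which is paired with a name. The wider set of adipogenic regulators, lipid droplet genes and markers of FAPs, SCs, adipocytes, endothelium and leukocytes was not counted for want of symbols. The cell type labels were therefore not checked against markers here. The study itself reported PDGFRA higher, and PAX7 and NCAM1 lower, in FAPs than in SCs, by RT-qPCR and by RNA sequencing.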

How the data were processed

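The authors prepared stranded poly(A) libraries, aligned single-end reads with STAR 2.7 to bosTau9 and counted them on Ensembl genes with featureCounts. The deposited counts are raw. Strand and multi-mapping settings are not given in the sources used here, so that overlapping genes or near-identical copies could share reads. The whole table was fitted with edgeR 4.0.16 (R 4.3.3) on cell type alone, after filterByExpr at a minimum count of 10 and TMM scaling. Standard errors were worked out from the quasi-likelihood F statistic. The study used limma, and limma 3.58.1 with voom and DESeq2 1.42.0 were alternatives. The number of further value columns was 0. The text names all genes of the list, and similar genes were ranked by Pearson's r of log2(CPM + 0.5). The genes and lists were chosen with earlier results of these data known. Poisson intervals and floors cover counting error only, and they take reads as independent, which PCR copies are not. The intervals of log2 fold changes rest on the quasi-likelihood standard error, which includes the spread between libraries.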

Additional observations from a re-analysis of the deposited data

How the results depend on the processing

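FABP4, LEP and LPL kept their direction and stayed called under all 18 alternatives run, with log2 fold changes from -4.36 to -3.72, from 2.41 to 3.02 and from -1.81 to -1.17. The alternatives were limma-voom, DESeq2, other factors or none, other filters, thinning, the replicate block, each library left out, a prior count of 2 and other thresholds. Among them, dropping the cutoff on the fold change could not undo a call. A prior count of 2 left the FDR as it was and could alter only the fold change. With each library left out in turn, CD36 ran from -0.03 to 0.18 and ENSBTAG00000014333 from 0.33 to 0.52. The sign of CD36 turned with upper-quartile factors (-0.041) and library totals (-0.48), and without FAPs replicate A (-0.031). That of ENSBTAG00000014333 turned with library totals (-0.12). Without a cutoff on the fold change, ENSBTAG00000014333 (0.42) was past the threshold, so that 2 of the genes were higher in FAPs, and 10001 of all genes were called, 4871 higher in FAPs and 5130 in SCs. With library totals, 1286 of all genes were higher in FAPs and 3794 in SCs.

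CPM on library totals moved the means, in FAPs and SCs, to 57.4 and 10.7 for LEP, 4.07 and 83.2 for FABP4, 3.10 and 10.8 for LPL, and 20.5 and 22.3 for ENSBTAG00000014333. The mean of CD36 moved to 1.51 in SCs and stayed within the SD in FAPs.

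The main fit used cell type alone, so that the letters were not treated as pairs. The deviations of same-lettered libraries had correlations of 0.322 (A), 0.0246 (B) and 0.260 (C). Libraries of unlike letters were not compared in this way, so these values cannot decide whether the letters are pairs. With the replicate block the log2 fold changes were 2.95 for LEP, -3.80 for FABP4, -1.26 for LPL, 0.06 for CD36 and 0.42 for ENSBTAG00000014333, no call of these genes changed, and 3942 of all genes were called. Counts of named lists were not run, for want of names. Depth limits CD36 most, at 20 to 50 counts a library.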
